A study of Mus musculus with 6 samples.

Results

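Cholesterol genes were read from the expression profiles of mouse epidermis labelled as control or as lacking Rictor, the subunit that defines mTOR complex 2. The set has 30 listed members: 18 enzymes that build cholesterol, 4 genes of the SREBP2 switch that regulates them, 4 genes of uptake and intracellular transport, and 4 genes of the LXR receptors and efflux. The list was drawn up by function, with earlier results of these data known. Of its members, 29 were found among the 49377 gene symbols of the deposited table. The expression of Mvd was not analysed here. Of the 29, 28 had a mean of at least 1 FPKM (fragments per kilobase of transcript, scaled to the library total) in either group and were tested. Nr1h3 fell under that limit.

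Cells assemble cholesterol from acetyl-CoA through mevalonate, farnesyl pyrophosphate, squalene and lanosterol. When sterols in the endoplasmic reticulum run low, the escort protein SCAP carries the precursor of the transcription factor SREBP2 to the Golgi, where it is cut and released to switch on the pathway. INSIG proteins hold SCAP back when sterols are plentiful, and LXR receptors, which sense oxysterols, turn on efflux. In the epidermis cholesterol is one of the main lipids between the cells of the cornified layer, and its sulfate takes part in barrier formation and shedding.

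The study compared 3 control libraries (261, 262 and 264) with 3 libraries labelled Rictor -/- (263, 265 and 266), all from separated epidermis of C57BL/6 embryos at E19.5. The titles of the latter read ricEKO. Neither the driver of the deletion, nor the deleted exons, nor the alleles of the controls are named in the labels. Whether every library stems from a different embryo is also not stated, so p-values here measure the spread between libraries, which may be technical. In bulk tissue, fewer cells of a type and less RNA per cell cannot be told apart.

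Rictor itself stood at 5.34 ± 0.862 FPKM in controls and 6.91 ± 0.115 in the knockout-labelled libraries (SD, n = 3 per group). The difference was 0.33 ± 0.11 (SE) on the log2(FPKM + 1) scale, with a limma adjusted p of 0.0694. A whole-gene value can keep reads from exons outside a deletion and so does not check the labels, and every direction here is that of the libraries labelled Rictor -/-. Summed FPKM ran from 609375 to 672925, and relative depth, read from steps in the low values, was 1 to 1.21 times that of control 261. Basal keratinocyte markers summed to 6193 to 7126 FPKM in controls and 10997 to 13021 in the knockout-labelled libraries, while 4 of 4 endothelial and 4 of 5 adipocyte markers were under 1 FPKM in every library. Control 264 stood apart from the other libraries. Its deviations from the gene means fell with exonic length across 13467 genes (Spearman's rho -0.358, a description across genes, which are not independent replicates). The same rho was -0.00709 in control 261 and 0.00280 in 262, and it was 0.173 to 0.263 in the knockout-labelled libraries.

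Several enzymes of cholesterol synthesis rose in the knockout-labelled libraries, and the sterol sensor partner Insig2 fell. Of 17 tested enzymes 5 rose and 0 fell, where 7.91% of all 13500 tested genes rose and 15.6% fell (limma on log2(FPKM + 1), Benjamini-Hochberg adjusted p under 0.05 over all tested genes). The enzymes that rose were Acat2, Idi1, Fdps, Sqle and Cyp51, by 0.45 to 0.67 on the log2 scale. Over the 17 enzymes the median difference was 0.14, against -0.06 over all tested genes. Of the 11 other tested members 0 rose and 1 fell, with a median of -0.21. Groups did not overlap for 17 of the 28 tested members, 9 of them higher and 8 lower, against 45.8% of all tested genes. Of all called genes 33.7% were higher as deposited, against 49.8%, 50.1% and 47.9% after median, trimmed mean and quantile scaling and 52.1% after adjusting for length and GC content.

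**Figure D1:**
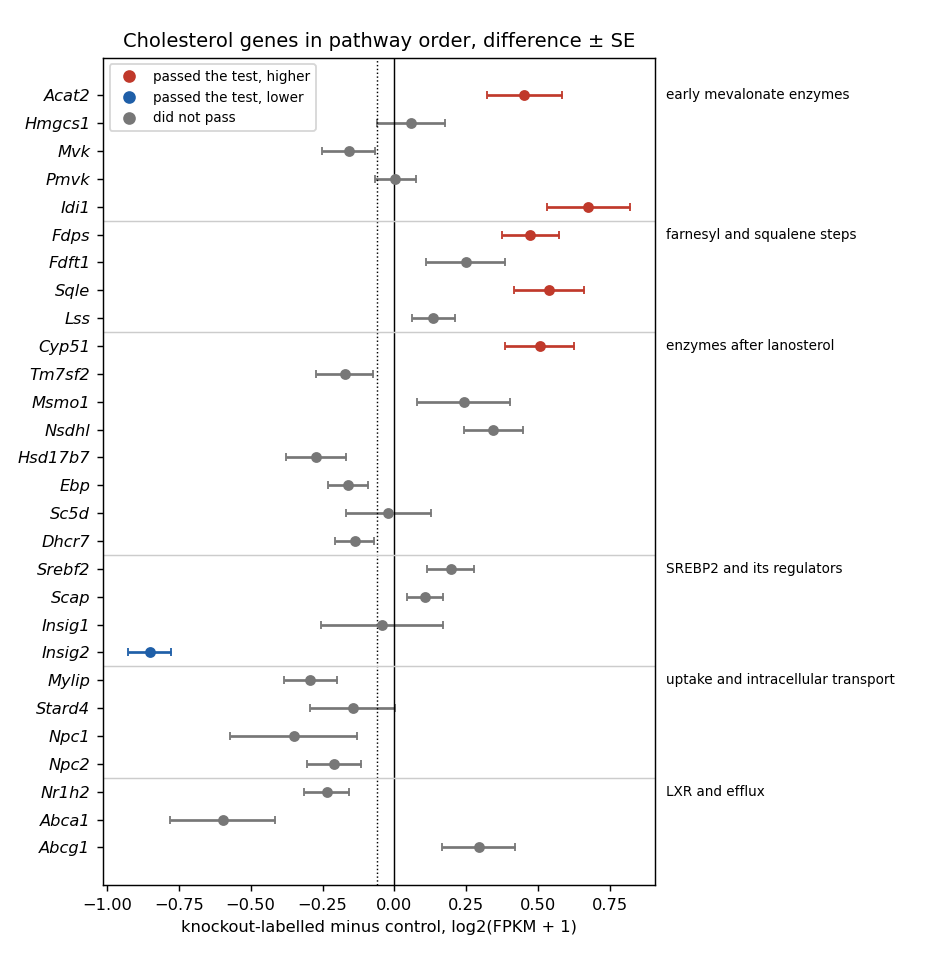
Differences of the 28 tested members in pathway order, knockout-labelled minus control on the log2(FPKM + 1) scale, with bars for the SE; the dotted line is the median of all tested genes (-0.06). The 5 red points, Acat2 to Cyp51, lie between 0.45 and 0.67, and the blue point, Insig2, lies at -0.85.

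Among the first steps, Acat2 (ENSMUSG00000023832, GRCm38 chromosome 17, 12942890 to 12960747), the cytosolic thiolase that joins acetyl-CoA units, read 13.9, 12.0 and 17.7 FPKM in controls 261, 262 and 264. The knockout-labelled libraries read 19.4, 19.6 and 21.02 FPKM in 263, 265 and 266. Every knockout-labelled value lay above every control, and the knockout-labelled libraries were closer to each other than the controls were. The rise was 0.45 ± 0.13 (SE, n = 3 per group) with a limma adjusted p of 0.0474, the closest to the threshold of the 5. Hmgcs1, the synthase that makes HMG-CoA and the most abundant enzyme of this stretch, read 122, 103 and 113 FPKM in controls and 112, 137 and 105 in the knockout-labelled libraries. Its groups overlapped, and the 95% interval of its difference ran from -0.22 to 0.34.

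Neither kinase of the mevalonate steps passed the test. Mvk, which phosphorylates mevalonate, ranged from 45.4 to 60.6 FPKM over the 6 libraries and differed by -0.16 ± 0.09 (interval -0.38 to 0.06). Pmvk, which adds the next phosphate, ranged from 54.0 to 62.0 FPKM and differed by 0.00 ± 0.07 (interval -0.17 to 0.17). Idi1 (ENSMUSG00000058258, chromosome 13, 8885501 to 8892451), the isomerase that makes the activated isoprene unit dimethylallyl pyrophosphate, had the largest difference of all 17 tested enzymes. It read 29.7, 23.3 and 34.4 FPKM in controls 261, 262 and 264 and 45.2, 51.7 and 43.2 FPKM in 263, 265 and 266. Mean FPKM was 29.1 ± 5.61 in controls and 46.7 ± 4.44 in the others (SD), a 1.60-fold difference of means, and the log2 rise was 0.67 ± 0.15 (limma adjusted p = 0.0198).

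Of the 4 farnesyl and squalene enzymes 2 rose, where 7.91% of all tested genes rose, and the other 2 did not pass. Fdps (ENSMUSG00000059743, chromosome 3, 89093588 to 89101959), which builds farnesyl pyrophosphate, read 88.2, 70.3 and 87.0 FPKM in controls and 112, 118 and 110.0 FPKM in 263, 265 and 266. Every knockout-labelled value was above every control, and the log2 rise was 0.47 ± 0.10 (limma adjusted p = 0.0182). Fdft1, squalene synthase, read 33.0 to 44.9 FPKM in controls and 40.6 to 52.1 in the knockout-labelled libraries, which overlap, and differed by 0.25 ± 0.14. Sqle (ENSMUSG00000022351, chromosome 15, 59315077 to 59331192), the squalene epoxidase and a rate-limiting step, read 47.7, 40.6 and 52.3 FPKM in controls. In 263, 265 and 266 it read 68.5, 76.7 and 60.3 FPKM, above all controls, with a log2 rise of 0.54 ± 0.12 (limma adjusted p = 0.0234). Lss, which closes the ring to lanosterol, was low by comparison at 13.7 to 17.1 FPKM and differed by 0.14 ± 0.08 (interval -0.05 to 0.32).

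Of the 8 enzymes after lanosterol 1 rose and 0 fell, where 7.91% of all tested genes rose and 15.6% fell. The differences were positive in 3 and negative in 5. Cyp51 (ENSMUSG00000001467, chromosome 5, 4081145 to 4104746), the lanosterol demethylase, read 28.7, 24.3 and 30.2 FPKM in controls and 39.7, 45.1 and 34.7 FPKM in 263, 265 and 266. The lowest knockout-labelled value was above the highest control, and the log2 rise was 0.51 ± 0.12 (limma adjusted p = 0.0269). Nsdhl, which removes a methyl group from the sterol ring, had groups that did not overlap, at 11.7 to 15.4 FPKM in controls and 17.6 to 18.0 in the knockout-labelled libraries. It differed by 0.34 ± 0.10 and just missed the threshold (limma adjusted p = 0.0520). Msmo1, the methylsterol oxidase and the most abundant enzyme of this stretch by mean FPKM, read 59.7, 50.4 and 72.2 FPKM in controls and 70.2, 84.6 and 61.0 FPKM in the knockout-labelled libraries. Its groups overlapped, with a difference of 0.24 ± 0.16.

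The other enzymes after lanosterol had means below those of controls, and none of these differences passed the test. Hsd17b7, a sterol ketone reductase, read 22.3 to 24.8 FPKM in controls and 16.9 to 22.2 in the knockout-labelled libraries (-0.27 ± 0.10, limma adjusted p = 0.102). Ebp, the sterol isomerase, read 39.9 to 45.5 against 36.2 to 38.8 FPKM (-0.16 ± 0.07). Dhcr7, which makes cholesterol from 7-dehydrocholesterol, read 56.2 to 62.7 against 51.5 to 53.8 FPKM (-0.14 ± 0.07). The groups of these 3 genes did not overlap. Tm7sf2, a sterol reductase, differed by -0.17 ± 0.10 and Sc5d, the lathosterol desaturase, by -0.02 ± 0.15, both with overlapping groups.

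**Figure D2:**
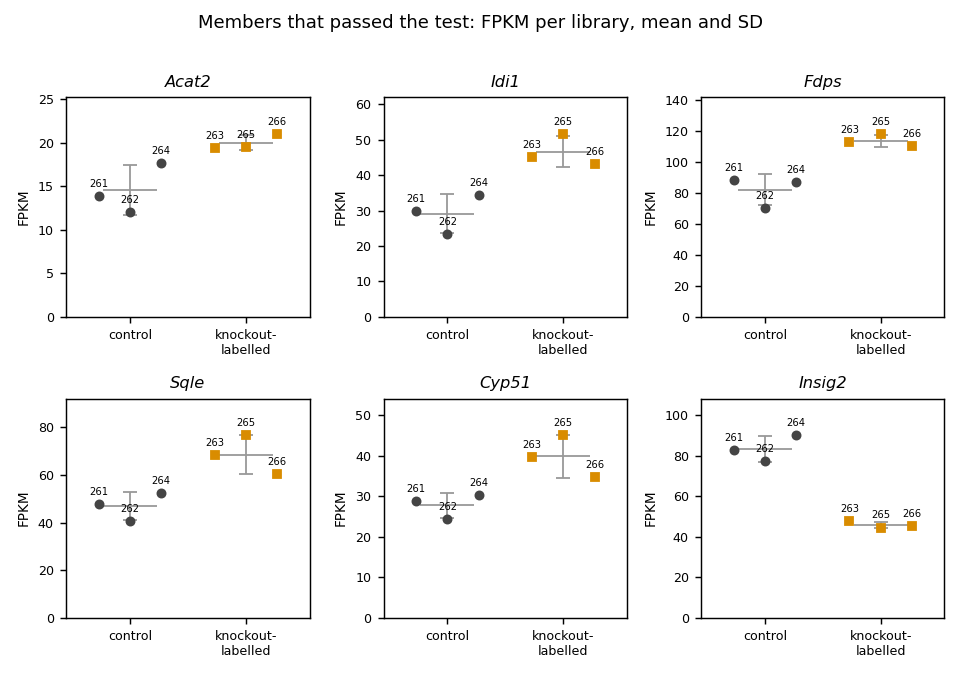
FPKM per library, on axes from 0, for the 6 members that passed the test, with library numbers beside the points and the mean and SD as lines. In the 5 enzymes all knockout-labelled libraries lie above all controls and control 262 is the lowest point, and in Insig2 the knockout-labelled libraries lie between 44.6 and 47.7 FPKM, below all controls.

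Libraries kept similar ranks across many of the enzymes. Control 262 was the lowest control for 13 of the 17 tested enzymes and the lowest of all 6 libraries for 10, including all 5 that rose. Control 264 was the highest control for 11. Among the knockout-labelled libraries 265 was highest for 10 of the 17, and for 8 it was the highest of all 6. On average the 17 enzymes lay 0.21 below their gene means on the log2 scale in control 262 and 0.16 above in 265, with the other 4 libraries between -0.08 and 0.05. Y-linked genes and Xist marked control 262 as female and controls 261 and 264 as male, while 263 and 265 were female and 266 male. With a term for sex 4 members rose and 3 fell, where 4.7% of all tested genes rose and 9.02% fell. In that fit Sqle (limma adjusted p = 0.0564) and Cyp51 (0.0648) lost their calls, while Nsdhl was called higher and Mylip and Abca1 lower.

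Leaving out single libraries ended calls. Without 263 or without 265 0 members passed as higher, although the differences of the 5 enzymes without those libraries were still 0.41 to 0.70. Without control 261 Fdps was the 1 member that rose, without control 262 Idi1 and Fdps rose, and without 266 Idi1, Sqle and Cyp51. Without control 264 the 5 enzymes and Nsdhl passed. In the same fit without 264, 11.2% of all tested genes rose and 16.8% fell.

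Sterol-regulated promoters often pair an SREBP site with a CCAAT box, the site of the general factor NF-Y, so promoter sequence was set beside the values. The RefSeq promoter table (GRCm38.p6, 250 bases before to 50 after each start) held 24 of the 30 members, 15 of them enzymes with Mvd included, and Fdps, Fdft1, Sqle, Stard4, Npc1 and Abcg1 were not among them. On either strand, CCAAT was present for 14 of 15 enzymes and 5 of 9 other members, against 41.1% of 27025 genes and 37.4% of 32851 promoters. The sterol element searched, TCACNCCAC, was present in 1 member, Hmgcs1, against 1.44% of genes and 1.24% of promoters. The motifs share no bases in that promoter. The LXR direct repeat, AGGTCA repeated after 4 free bases, was in 0 members and 0.0148% of genes. Only 4 of 27025 genes held this exact repeat, so its absence from the members says little. Repeats that differ from these letters were not searched. A match describes letters and is not a bound site, and factors also act outside this window.

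Hmgcs1 is printed because it held the sterol element although its difference did not pass, and Acat2 because it rose and was the 1 enzyme of the 15 without a CCAAT box. The stretches run 5′ to 3′ on the strand of the gene, chr13:119690101-119690350 (plus strand) and chr17:12960748-12960975 (minus strand), and leave out annotated untranslated bases. Capitals mark the sterol element TCACCCCAC and the CCAAT box, which reads ATTGG where it lies on the opposite strand.
Hmgcs1: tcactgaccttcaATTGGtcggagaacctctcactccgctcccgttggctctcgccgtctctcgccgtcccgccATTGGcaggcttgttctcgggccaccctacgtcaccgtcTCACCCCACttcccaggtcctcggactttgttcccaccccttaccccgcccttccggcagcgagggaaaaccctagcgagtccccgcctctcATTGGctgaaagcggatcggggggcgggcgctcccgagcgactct
Acat2: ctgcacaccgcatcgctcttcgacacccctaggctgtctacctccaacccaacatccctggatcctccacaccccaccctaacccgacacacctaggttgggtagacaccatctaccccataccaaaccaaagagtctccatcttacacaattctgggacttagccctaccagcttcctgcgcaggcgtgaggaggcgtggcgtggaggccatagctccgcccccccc

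The enzymes Idi1 and Cyp51 rose and carry their boxes close to the start, inside bases that GENCODE M21 annotates as untranslated, so 25 bases around each box are shown. The first base of the box lies 45 and 14 bases before the RefSeq start in Idi1 (chr13:8885551-8885575 and chr13:8885582-8885606, plus strand) and 29 bases before it in Cyp51 (chr5:4104712-4104736, minus strand). Boxes this close were also present in enzymes that did not pass. Counted from the start, they lie at -12 in Hsd17b7, -14 in Mvk and -24 in Sc5d. Nsdhl has them at -20, 8 and 34 and Hmgcs1 at -45 and 10, where numbers without a minus lie after the start.
Idi1, upstream box: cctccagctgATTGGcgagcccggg
Idi1, downstream box: ccaaggtgccATTGGctggcgaccg
Cyp51: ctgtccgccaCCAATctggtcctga

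Of the 4 genes of the SREBP2 switch 1 fell and 0 rose, where 15.6% of all tested genes fell and 7.91% rose. Insig2 (ENSMUSG00000003721, chromosome 1, 121304353 to 121332589), which anchors SCAP in the endoplasmic reticulum, read 83.1, 77.3 and 90.2 FPKM in controls 261, 262 and 264. In 263, 265 and 266 it read 47.7, 44.6 and 45.1 FPKM. All knockout-labelled libraries lay far below all controls and close to each other. Mean FPKM was 83.5 ± 6.48 in controls and 45.8 ± 1.66 in the knockout-labelled libraries (SD, n = 3 per group), and the log2 difference was -0.85 ± 0.08 (limma adjusted p = 0.00195). Insig2 passed as lower in all 17 alternatives tried, with differences of -0.90 to -0.77.

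Its paralog Insig1, itself a classic SREBP target, did not pass the test, and the difference between the paralogs was not tested. It read 15.0, 10.7 and 16.2 FPKM in controls and 12.9, 17.6 and 10.4 FPKM in 263, 265 and 266. The groups overlapped, the difference was -0.04 ± 0.21, and its interval of -0.55 to 0.46 is wide. The ratio of Insig2 to Insig1, both per length, was 5.52, 7.25 and 5.58 in controls and 3.70, 2.54 and 4.35 in the knockout-labelled libraries, so Insig2 was the more abundant paralog in all 6. Summed FPKM of both genes went from 87.9 to 106 in controls to 55.5 to 62.1 in the knockout-labelled libraries.

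The mouse Insig2 gene starts from alternative promoters, one of which is known from liver as a start that insulin suppresses. The deposited values are per gene and do not separate them. RefSeq lists 3 starts, and the bases before the most upstream start (chr1:121332590-121332839, minus strand) and before the middle start (chr1:121328025-121328274, minus strand) are printed because Insig2 has the largest difference of the set. Capitals again mark CCAAT boxes, present before the upstream start and not before the middle one.
Insig2, upstream start: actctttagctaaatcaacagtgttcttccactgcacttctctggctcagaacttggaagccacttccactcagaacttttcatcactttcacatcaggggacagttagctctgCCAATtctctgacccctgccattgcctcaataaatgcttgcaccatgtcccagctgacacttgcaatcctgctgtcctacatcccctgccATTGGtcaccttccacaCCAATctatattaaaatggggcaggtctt
Insig2, middle start: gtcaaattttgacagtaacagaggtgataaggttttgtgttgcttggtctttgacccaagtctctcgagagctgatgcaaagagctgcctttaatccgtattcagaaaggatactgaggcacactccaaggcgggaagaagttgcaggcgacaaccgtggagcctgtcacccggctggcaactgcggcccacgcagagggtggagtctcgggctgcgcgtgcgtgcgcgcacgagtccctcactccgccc

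Srebf2, which encodes SREBP2, read 59.5, 54.7 and 49.9 FPKM in controls and 62.1, 65.5 and 60.2 FPKM in 263, 265 and 266. The groups did not overlap but nearly met, and the difference of 0.20 ± 0.08 did not pass (limma adjusted p = 0.126). Scap, the escort, also had groups that nearly met, at 25.1 to 27.8 FPKM in controls and 27.9 to 28.7 in the knockout-labelled libraries (0.11 ± 0.06). These are mRNA levels, and the cutting of the SREBP2 protein was not measured.

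**Figure D3:**
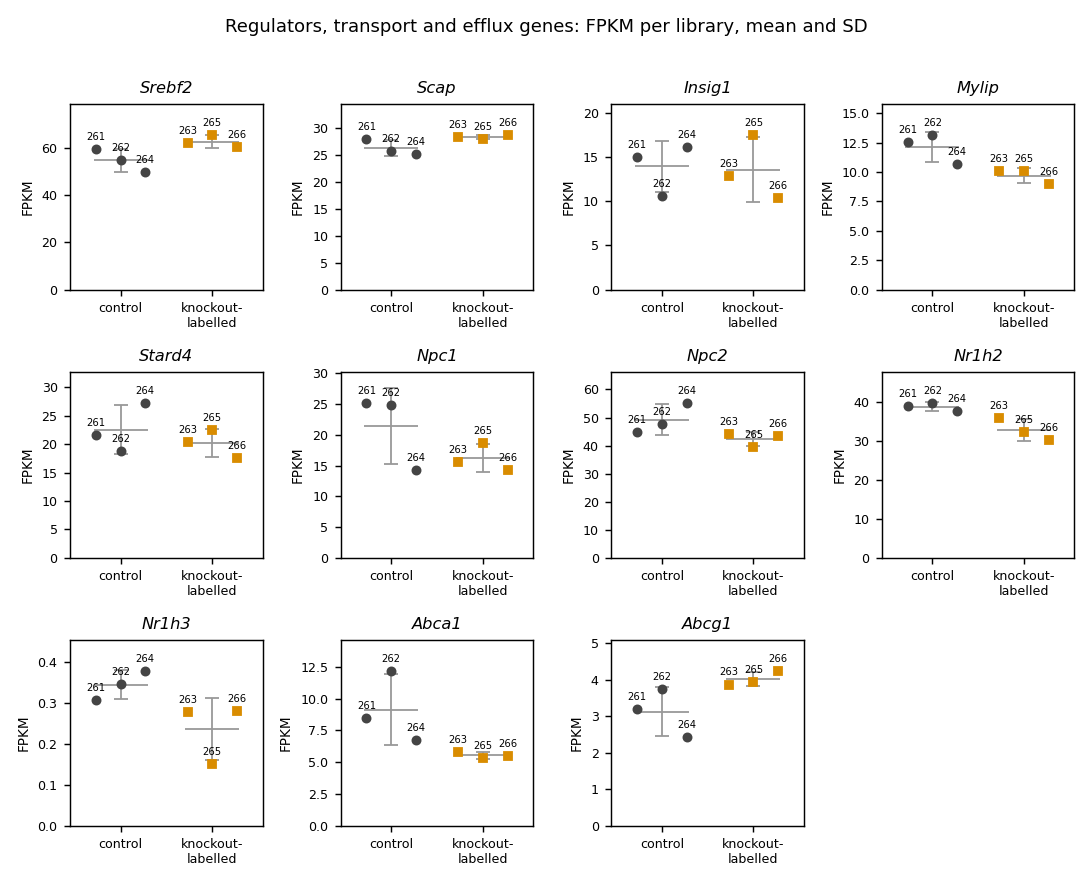
FPKM per library, on axes from 0, for the 11 regulators, transport and efflux genes other than Insig2, with library numbers beside the points and the mean and SD as lines. Insig1 and Stard4 overlap between groups, and control 264 lies with the knockout-labelled libraries for Npc1. The knockout-labelled libraries lie below all controls for Mylip, Npc2, Nr1h2 and Abca1, and for Nr1h3, which was too low to be tested.

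Genes of uptake and intracellular transport all had differences below 0, and 0 of 4 passed limma's test, where 23.5% of all tested genes passed. Mylip, an LXR-induced ubiquitin ligase that removes lipoprotein receptors, read 10.7 to 13.2 FPKM in controls and 8.97 to 10.1 in the knockout-labelled libraries (-0.29 ± 0.09, limma adjusted p = 0.0616). Stard4, a soluble sterol carrier, read 18.7 to 27.3 against 17.6 to 22.6 FPKM (-0.15 ± 0.15).

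Npc1 and Npc2, the membrane and soluble proteins that hand cholesterol out of lysosomes, differed in how far single libraries decided them. Npc1 read 25.2, 24.8 and 14.2 FPKM in controls 261, 262 and 264 and 15.6, 18.7 and 14.3 FPKM in 263, 265 and 266. Control 264 was thus the lowest of all 6, and the difference of -0.35 ± 0.22 did not pass (limma adjusted p = 0.286). Without control 264 it was -0.61 and passed (limma adjusted p = 0.0164). The Npc1 exons span 11317 bases, more than those of any other member. After adjusting all libraries for length and GC content the difference was -0.39 and did not pass (limma adjusted p = 0.202). Npc2 read 44.7, 47.8 and 55.3 FPKM in controls and 44.1, 39.5 and 43.4 in the knockout-labelled libraries, which did not overlap, and differed by -0.21 ± 0.09.

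Among the LXR and efflux genes 0 of 3 tested members passed limma's test, where 23.5% of all tested genes passed. The transporters differed in sign. Nr1h2, which encodes the widely expressed LXR beta, read 38.8, 39.7 and 37.5 FPKM in controls and 35.9, 32.3 and 30.1 FPKM in 263, 265 and 266. The knockout-labelled libraries lay below all controls, and the difference was -0.24 ± 0.08 (limma adjusted p = 0.0704). Nr1h3, which encodes LXR alpha, read 0.308, 0.347 and 0.379 FPKM in controls and 0.278, 0.150 and 0.282 in the knockout-labelled libraries, too low to be tested. Nr1h2 was therefore the more abundant receptor mRNA in every library.

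Abca1, which loads cholesterol onto apolipoprotein A-I, read 8.48, 12.2 and 6.74 FPKM in controls and 5.81, 5.30 and 5.52 FPKM in 263, 265 and 266. All knockout-labelled values were below all controls, but the controls spread widely, and the difference of -0.60 ± 0.18 did not pass (limma adjusted p = 0.0568). Without control 264 it was -0.77 and passed (limma adjusted p = 0.0166). Abcg1, which loads cholesterol onto mature HDL particles, read 3.20, 3.75 and 2.44 FPKM in controls and 3.87, 3.94 and 4.25 in the knockout-labelled libraries. Its difference was opposite in sign at 0.29 ± 0.13 (limma adjusted p = 0.138), and the groups nearly met. Without control 264, 4 of the 28 tested members fell, namely Insig2, Mylip, Npc1 and Abca1. In that fit 16.8% of all tested genes fell.

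Genes around the pathway were read from 8 lists drawn up by function, with 64 tested genes. The lists were chosen with earlier results of these data known, so their counts are descriptions. Papss2 and Lrp8 passed the filter on low values only by their knockout-labelled means, which fixed their direction, so they are left out of the counts. Of the other 62 genes 3 rose and 16 fell, where 7.95% of the 12667 genes with at least 1 FPKM in both groups rose and 15.3% fell (23.2% called in all). The share that rose was thus below that of all such genes, and the share that fell above it, with no test of either. In the isoprenoid branches, which leave the pathway at farnesyl pyrophosphate, 2 of 12 rose and 2 fell, the latter a share near that of all genes. Pdss1 (0.45 ± 0.08), which builds the tail of ubiquinone, and Nus1 (0.28 ± 0.06), a subunit of the dolichol-forming transferase, rose. Dhdds (-0.30 ± 0.06), the catalytic subunit of that same transferase, and Fnta (-0.46 ± 0.08), the subunit shared by farnesyltransferase and the type I geranylgeranyl transferase, fell. The subunits of dolichol synthesis thus differed in sign, Dhdds from 18.4 ± 0.416 to 14.8 ± 0.322 FPKM and Nus1 from 11.8 ± 0.378 to 14.6 ± 0.636 FPKM (SD, n = 3 per group).

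For the next 3 lists, 15.3% of all genes counted above fell and 7.95% rose. Of 12 genes that process SREBP or degrade its sterol-regulated partners 1 fell and 0 rose. It was Erlin2 (-0.31 ± 0.06), a membrane protein of the degradation machinery, while Mbtps1 and Mbtps2, the proteases that cut SREBP, chosen after seeing their values, differed by -0.02 ± 0.07 and -0.03 ± 0.11. Of 5 genes of cholesterol esters 1 fell, Soat1 (-0.93 ± 0.11), which stores cholesterol as esters. Its values were 23.0, 18.6 and 20.9 FPKM in controls and 10.7, 9.12 and 11.4 FPKM in 263, 265 and 266. In the cholesterol sulfate cycle 1 of 2 counted genes rose. Sult2b1 (0.31 ± 0.07), the sulfotransferase that makes cholesterol sulfate in epidermis, read 136, 138 and 149.6 FPKM in controls and 173, 180.0 and 172 FPKM in the knockout-labelled libraries. Papss1, the other counted gene, chosen after seeing its values, read 48.2 ± 4.91 FPKM in controls and 41.5 ± 3.33 in the knockout-labelled libraries (SD). Its groups did not overlap, and its difference of -0.21 ± 0.10 did not pass. Papss2, which makes the sulfate donor, read 0.510 ± 0.1002 FPKM in controls and 1.17 ± 0.200 in the knockout-labelled libraries (SD), given as a description. Sts was not analysed here.

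Of 3 tested enzymes that turn cholesterol into oxysterols and bile acids 2 fell, against 15.3% of all genes counted above. Cyp27a1 (-0.80 ± 0.23), the sterol 27-hydroxylase, read 3.39, 3.82 and 1.69 FPKM in controls and 1.14, 1.016 and 1.49 FPKM in the knockout-labelled libraries. Control 264 was again the lowest control, and the difference was -1.06 without it. Cyp39a1 (-0.42 ± 0.08), an oxysterol 7-hydroxylase, fell too, from 9.39 to 10.7 FPKM in controls to 6.59 to 7.74 in the knockout-labelled libraries. Among 13 sterol transfer proteins 6 fell, against 15.3% of all genes counted above, and 0 rose. Those that fell were Osbpl1a (-0.58 ± 0.05), Scp2 (-0.56 ± 0.10), Stard5 (-0.34 ± 0.08), Osbpl2 (-0.33 ± 0.07), Osbpl5 (-0.25 ± 0.06) and Gramd1c (-0.65 ± 0.17). Scp2, a peroxisomal and cytosolic sterol carrier, went from 127 ± 16.7 to 85.2 ± 0.766 FPKM. Osbpl1a, an oxysterol-binding protein of late endosomes, read 57.7 to 58.2 FPKM in controls and 37.5 to 39.3 in the knockout-labelled libraries. Without control 264 Gramd1c no longer passed (limma adjusted p = 0.0748), though its difference was still -0.61.

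Of 8 counted lipoprotein receptors and adaptors 2 fell, with 15.3% of all such genes lower. Lrp8, a receptor for lipoproteins and reelin, read 0.731, 0.988 and 0.607 FPKM in controls and 2.73, 2.47 and 2.09 FPKM in 263, 265 and 266, again as a description. Scarb2 (-0.42 ± 0.06), a lysosomal membrane protein of the scavenger receptor family, and Cd36 (-0.49 ± 0.14), a scavenger receptor for fatty acids and oxidised lipoproteins, fell. Without control 264 the difference of Cd36 was -0.45 and its call was lost (limma adjusted p = 0.0879). Of 7 RXR partners and other LXR targets 2 fell, Rxrb (-0.31 ± 0.06), a partner receptor of LXR, and Lpcat3 (-0.30 ± 0.07), a phospholipid-remodelling enzyme.

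**Figure D4:**
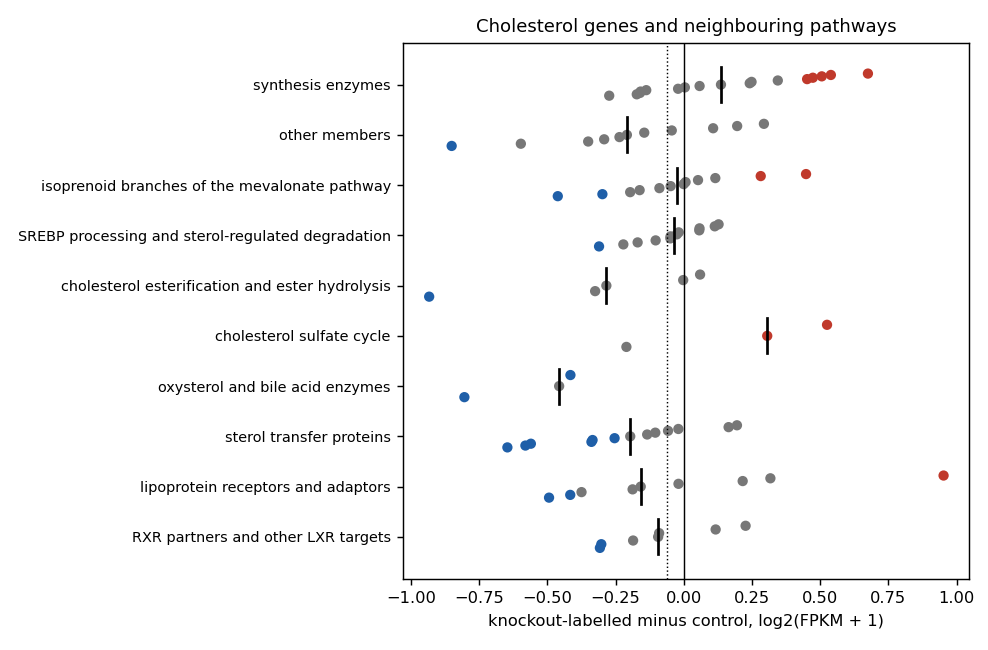
Differences of the members, split into synthesis enzymes and others, and of 8 surrounding lists, knockout-labelled minus control on the log2(FPKM + 1) scale; red points rose, blue points fell, grey points did not pass, and a bar marks each median, with Papss2 and Lrp8 drawn although not counted in the text. The synthesis enzymes have a median of 0.14 and the sterol transfer proteins one of -0.20, with 6 of 13 in blue.

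Markers of lipid-making and other cells moved with the label as well, where 7.91% of all 13500 tested genes rose and 15.6% fell. The 8 sebaceous gland markers, of which 7 fell, summed to 139 to 156 FPKM in controls and 73.2 to 85.0 in the knockout-labelled libraries. The 6 hair follicle markers, of which 6 fell, summed to 744 to 923 against 404 to 486 FPKM. The 5 myeloid markers, of which 3 fell, summed to 51.4 to 57.3 against 29.1 to 36.6 FPKM, with Cd207 near 0. Of 4 melanocyte markers 3 fell, with sums of 336 to 416 against 252 to 283 FPKM, and 2 of 2 tested T cell markers fell, with sums of 6.70 to 10.4 against 1.21 to 3.51 FPKM over all 4. Of 4 tested dermal fibroblast markers 2 rose, while the sums over all 6 overlapped at 114 to 142 against 124 to 159 FPKM. Erythroid and muscle sums also overlapped. Basal keratinocyte markers rose in 5 of 5, while 0 of 5 markers of differentiated keratinocytes passed, with sums of 27024 to 29820 against 25024 to 26393 FPKM. The part of these shifts in the values of Insig2, Soat1, Abca1 and the enzymes was not tested.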

How the data were processed

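RNA from separated epidermis was extracted with a QIAGEN RNeasy kit, per the labels' protocols, in 3 control and 3 Rictor -/- libraries. CASAVA and Cufflinks were used with GRCm38, per the submitters' processing notes. The aligner, annotation and strandedness are unstated there. Values are FPKM per gene as the authors deposited them. Depth in counts is unknown, so no counting interval is given. FPKM divides by the library total and gene length, so abundant genes and length trends shift other values.

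GENCODE M21 named 49195 of 49452 identifiers, and the highest row per symbol was kept. Genes whose control or knockout-labelled mean reached 1 FPKM were fitted with limma 3.58.1 in R 4.3.3 on log2(FPKM + 1) with an intensity trend, two-sided, adjusted over 13500 genes with a threshold of 0.05. Fold changes on that scale understate low genes. The fit was tested on simulated data. Alternatives were other pseudocounts, filters, scalings, variance models, a sex term, a length and GC adjustment and each library left out. Members and lists were chosen with earlier results of these data known. Members are all named, with each library's value for called members, the most abundant of each role and paralogs, and from each surrounding list up to 6 called genes or, if none was called, the gene with the smallest p. Exons of Fdft1, Npc1, Cyp51 and Tm7sf2 share 774, 511, 166 and 532 bases with Ctsb, Rmc1, Akap9 and Vps51, whose reads cannot be told apart there without strand or transcript. The same holds for some called genes around the pathway. Pdss1 shares 194 bases with Abi1 (means of 62.3 FPKM in controls and 65.1 in the knockout-labelled libraries). Lpcat3 shares 334 bases with Emg1 (83.8 and 85.2 FPKM). Promoters came from RefSeq. Figures used Python 3.11.15 and matplotlib 3.10.9.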

Additional observations from a re-analysis of the deposited data

How the results depend on the processing

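Insig2 was called lower in all 17 alternatives, and the 5 enzymes kept a positive difference in all 17, though each lost its call in some. Called genes around the pathway, with Papss2 and Lrp8 included, lost their calls in 78 combinations of gene and alternative. With Rictor counted too, the outcome was unchanged in 291, and no difference changed sign. Genes called over the whole table numbered 3169, with 6272 under array weights, 1852 with a sex term and 1462 to 3784 when 1 library was left out. Members called higher numbered 5, with 8 under array weights, 1 (Fdps) with no filter on low values and 0 to 6 when 1 library was left out. Members called lower numbered 1, with 6 under array weights, 2 after adjusting for length and GC content, 2 with a pseudocount of 0.1, 3 with a sex term, 4 at an adjusted p of 0.10 and 1 to 4 when 1 library was left out. The cause was not tested.

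Among members that did not pass, some log2 differences near 0 changed sign. Hmgcs1 was -0.0745 under array weights and -0.0543 to 0.136 when 1 library was left out, and Pmvk was -0.0398 to 0.0576 when 1 library was left out. Sc5d was 0.0360 under array weights, 0.0249 after the length and GC adjustment, 0.0481 after median scaling, 0.0136 after quantile normalization, 0.00887 with a sex term and 0.0493 after trimmed mean scaling. When 1 library was left out it was -0.132 to 0.132. Insig1 was 0.0529 after the length and GC adjustment, 0.0226 after median scaling, 0.00575 after quantile normalization, 0.0238 after trimmed mean scaling and -0.232 to 0.121 when 1 library was left out. No paired analysis was possible because the library numbers differ for every library. Depth in counts is unknown, which limits statements on genes under 1 FPKM.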

Other observations

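Several genes of sterol handling, chosen after seeing their values, were listed at very low levels. Soat2, the esterifying enzyme of liver and gut, reached at most 0.0324 FPKM and Abcg8, a subunit of the sterol exporter, at most 0.0175 FPKM. Its partner Abcg5 read 0.113, 0.0542 and 0.1002 FPKM in controls and 0.0312, 0.0155 and 0.0291 FPKM in the knockout-labelled libraries. Ch25h, which makes 25-hydroxycholesterol, read 0.0604 to 0.117 against 0.0177 to 0.0498 FPKM. Cyp7b1 had the higher mean in the knockout-labelled libraries, at 0.0682 to 0.2165 FPKM in controls against 0.179 to 0.238, with overlapping groups. Cyp46a1, Osbpl6, Gramd1b and Rxrg were also under the limit and are not described. None of these entered the test.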
